A study of Mus musculus with 8 samples.

Results

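The 10 genes described here, Lyve1, Mrc1, Cd163, Folr2, F13a1, Cbr2, Stab1, Gas6, Maf and Msr1, are genes of perivascular and other tissue-resident macrophages. They were taken by name from the 23413 gene symbols of the deposited counts, and all 10 were found. They were chosen by name, and selected on measured values, since earlier results of these counts in the DMSO, I.P. and S.C. mice were known, among them the low Lyve1 of the S.C. mice. Their levels and differences between the groups are therefore given as a description. Where the count of members that meet the study's criterion is given, its P serves as a cut for that count and not as a test of the members. Not every member is a scavenger receptor, since Maf encodes a transcription factor, Gas6 a secreted ligand, F13a1 a transglutaminase and Cbr2 a reductase.

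RNA was sequenced from tumor-associated macrophages (TAMs) of 8 mice, 1 library per mouse. The tumors were B16F10, a melanoma line of C57BL/6 origin, engrafted under the skin of C57BL/6 (B6) males of 8 to 10 weeks. The vehicle DMSO was given to 2 mice, thiostrepton by intraperitoneal (I.P.) injection to 4 mice, and thiostrepton by paratumor subcutaneous (S.C.) injection to 2 mice, which the sample labels call IS. Thiostrepton is a thiopeptide antibiotic made by Streptomyces. Dosing was on days 6 and 12 of tumor growth. On day 18 the TAMs were sorted as CD45+, F4/80+ and CD11b+ cells without Gr-1. For S.C. injection 20 mg/kg was used. The study used more than 1 I.P. dose in this tumor model, and which of them these I.P. mice received, like the route of these DMSO mice, is not given in the sources used here. The libraries held 14127506 to 17577466 counts, so a floor of 3 counts lay between 0.168 and 0.217 CPM, the counts scaled to equal library size. This floor covers counting error only. Library sizes were scaled over the 8 mice by edgeR's TMM method, and gene length is not accounted for.

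Tissue-resident macrophages are long-lived cells, many of them seeded before birth, that clear debris, modified proteins and hemoglobin through endocytic receptors. A subset that lies along vessels carries LYVE1, the folate receptor FOLR2, the mannose receptor CD206 (Mrc1) and the hemoglobin receptor CD163. In tumors, macrophages of this kind coexist with macrophages that derive from blood monocytes. Inflammatory stimuli are known to lower several of these receptors, and IL-10, glucocorticoids and MAF are known to raise them.

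The sorted cells expressed macrophage genes. All 13 measured macrophage markers, among them Emr1 (F4/80), Csf1r, Mertk and the C1q genes, were above 5 CPM in each mouse. Their summed level was 31955 and 27939 CPM in the DMSO mice, 28602 to 35302 CPM in the I.P. mice and 39154 and 43060 CPM in the S.C. mice. Lyz2 alone was at 16495 and 15492 CPM in the DMSO mice and 20941 and 24851 CPM in the S.C. mice. Not every marker was higher in both S.C. mice. Emr1 was at 918 and 597 CPM in the DMSO mice and 353 and 1012 CPM in the S.C. mice. Csf1r was at 770 and 736 CPM in the DMSO mice and 346 and 1119 CPM in the S.C. mice. Lyve1 and Stab1 are also endothelial genes. Of 14 endothelial markers, the lymphatic and vascular markers Prox1, Ccl21a, Reln and Cldn5 had 0 counts in every mouse. Others were present in single mice. In S.C. mouse 2, Pecam1 was at 7.30 CPM and Stab2 at 9.17 CPM, against at most 1.23 and 2.38 CPM in the other mice. Flt4 was at 5.21 CPM in S.C. mouse 1, and Kdr at 7.44 CPM in I.P. mouse 4. The 14 summed to 14.2 and 30.5 CPM in the DMSO mice, 13.5 to 19.4 CPM in the I.P. mice and 25.4 and 37.8 CPM in the S.C. mice. Pdpn, which macrophages can also express, was at 8.58 to 27.6 CPM of that. Gas6 is also made by fibroblasts, whose 10 markers summed to between 0 and 2.22 CPM.

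Markers of other cells of the tumor were also measured. The 13 neutrophil markers summed to 187 and 199 CPM in the DMSO mice, 139 to 194 CPM in the I.P. mice and 291 and 546 CPM in the S.C. mice. In S.C. mouse 1, Cxcr2 made up 167 CPM of this, against at most 97.2 CPM in the other mice. In S.C. mouse 2 the granule genes Ngp, Ltf and Mpo were at 59.8, 28.1 and 20.1 CPM, against at most 4.35, 1.58 and 1.26 CPM elsewhere. The 12 monocyte markers summed to 200 and 181 CPM in the DMSO mice, 84.3 to 525 CPM in the I.P. mice and 455 and 593 CPM in the S.C. mice. Much of the latter was Nr4a1, an early response gene that macrophages also induce. The 11 monocyte markers without it summed to 192 and 174 CPM, 77.6 to 362 CPM, and 198 and 321 CPM in the same order, and the monocyte chemokine receptor Ccr2 was at 60.1 and 79.6 CPM in the DMSO mice and 59.5 and 76.1 CPM in the S.C. mice. The 14 lymphocyte markers summed to 36.8 and 12.4 CPM, 11.4 to 37.5 CPM, and 72.5 and 50.8 CPM in the same order. The 10 dendritic cell markers summed to 20.3 and 8.26 CPM, 5.31 to 15.4 CPM, and 42.8 and 18.7 CPM. The 8 melanoma markers other than Gpnmb, which macrophages express strongly, summed to 627 and 711 CPM, 481 to 1809 CPM, and 3001 and 747 CPM. The part that these cells played in the levels below was not tested. In bulk RNA, fewer cells of a kind cannot be told apart from less RNA per cell.

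The members lie on 7 chromosomes. By the GENCODE vM21 annotation of GRCm38, the assembly also called mm10, Lyve1 is on chromosome 7 from 110850607 to 110863239 and Folr2 on the same chromosome from 101839988 to 101857194. Gas6 (13465374 to 13494490), Msr1 (39581685 to 39642673) and Maf (115682942 to 115707794) are on chromosome 8. Mrc1 is on chromosome 2 from 14229392 to 14332057, Cd163 on chromosome 6 from 124304656 to 124330527 and F13a1 on chromosome 13 from 36867178 to 37050244. Cbr2 is on chromosome 11 from 120729489 to 120732114 and Stab1 on chromosome 14 from 31139013 to 31168641. All but Mrc1 and Cd163 are on the minus strand. The exons of Stab1 overlap those of Nt5dc2 on the other strand by 112 bases, so some reads of these 2 genes may not be separable.

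RefSeq promoter windows (GRCm38.p6) were available for 7 of the 10 members, without Lyve1, Maf and Msr1. They are shown for the 4 of these 7 genes that met the study's criterion in S.C. against DMSO mice, since these members were low together. The bases before the RefSeq start are printed as far as the GENCODE gene, 5′ to 3′ on the gene's strand. Capitals mark GGAAGT, a core of sites for the macrophage factor PU.1, and TGCTGA, a half-site of MAF factors, on either strand. The windows are Mrc1 at chr2:14229164-14229391 (plus strand), Cd163 at chr6:124304401-124304650 (plus strand), Folr2 at chr7:101857195-101857440 (minus strand) and F13a1 at chr13:37050245-37050494 (minus strand).
Mrc1: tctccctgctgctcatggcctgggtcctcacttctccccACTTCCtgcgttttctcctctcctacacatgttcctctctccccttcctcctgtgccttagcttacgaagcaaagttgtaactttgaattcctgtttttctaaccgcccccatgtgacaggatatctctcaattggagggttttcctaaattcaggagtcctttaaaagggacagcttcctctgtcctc
Cd163: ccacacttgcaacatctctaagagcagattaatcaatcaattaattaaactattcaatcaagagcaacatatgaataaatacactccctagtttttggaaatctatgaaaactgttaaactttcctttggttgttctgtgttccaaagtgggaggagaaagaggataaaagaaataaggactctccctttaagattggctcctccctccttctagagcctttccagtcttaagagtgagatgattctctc
Folr2: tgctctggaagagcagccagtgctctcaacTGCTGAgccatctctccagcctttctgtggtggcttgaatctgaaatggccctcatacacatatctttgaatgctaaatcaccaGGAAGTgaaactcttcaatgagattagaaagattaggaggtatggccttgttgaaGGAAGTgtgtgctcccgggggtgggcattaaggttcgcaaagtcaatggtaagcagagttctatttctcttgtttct
F13a1: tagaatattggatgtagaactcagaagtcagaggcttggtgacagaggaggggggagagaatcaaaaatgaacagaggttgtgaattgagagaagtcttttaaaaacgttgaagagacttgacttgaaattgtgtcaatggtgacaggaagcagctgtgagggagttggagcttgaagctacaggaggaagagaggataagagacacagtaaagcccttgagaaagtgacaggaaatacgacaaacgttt

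The Folr2 window held GGAAGT at 2 places and TGCTGA at 1 place, and the Mrc1 window held GGAAGT at 1 place, as ACTTCC on the printed strand. Cd163 and F13a1 had neither motif, nor did Gas6 or Cbr2, and Stab1, whose level differed little between the groups, had TGCTGA at 1 place. TGACTCA, an AP-1 site that overlaps the full MAF site, was in none of these 7 windows. Among all 32851 RefSeq windows of 250 bases, 19.7% held GGAAGT, 16.1% held TGCTGA and 4.46% held TGACTCA. The Mrc1, Folr2 and Cbr2 windows were cut to 228, 246 and 157 bases. Their matches do not compare directly with these shares. In the bases searched, the 7 members shared no motif of the 3, and a match is a string of letters, not a measured site.

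Per kb of the longest transcript in GENCODE's basic set, the members spanned a wide range of levels in the DMSO mice. Msr1, the class A scavenger receptor for modified lipoproteins, was highest at 458 ± 177 CPM per kb (SD, n = 2). Cbr2, a carbonyl reductase, followed at 408 ± 225 CPM per kb, and F13a1, the A subunit of coagulation factor XIII, at 403 ± 184 CPM per kb. These 3 neighbours differed by less than their SDs. Gas6 was at 263 ± 46.9, Folr2 at 234 ± 126 and Mrc1 at 142 ± 38.0 CPM per kb, and Stab1 at 50.4 ± 12.7 CPM per kb. Lyve1 (17.1 ± 16.0), Cd163 (10.6 ± 5.70) and Maf (5.66 ± 2.93) were the lowest in CPM per kb, and their order is within their SDs. In the S.C. mice Msr1 was still highest per kb at 377 ± 138, and Lyve1 was lowest at 0.205 ± 0.290 CPM per kb (SD, n = 2).

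**Figure D1:**
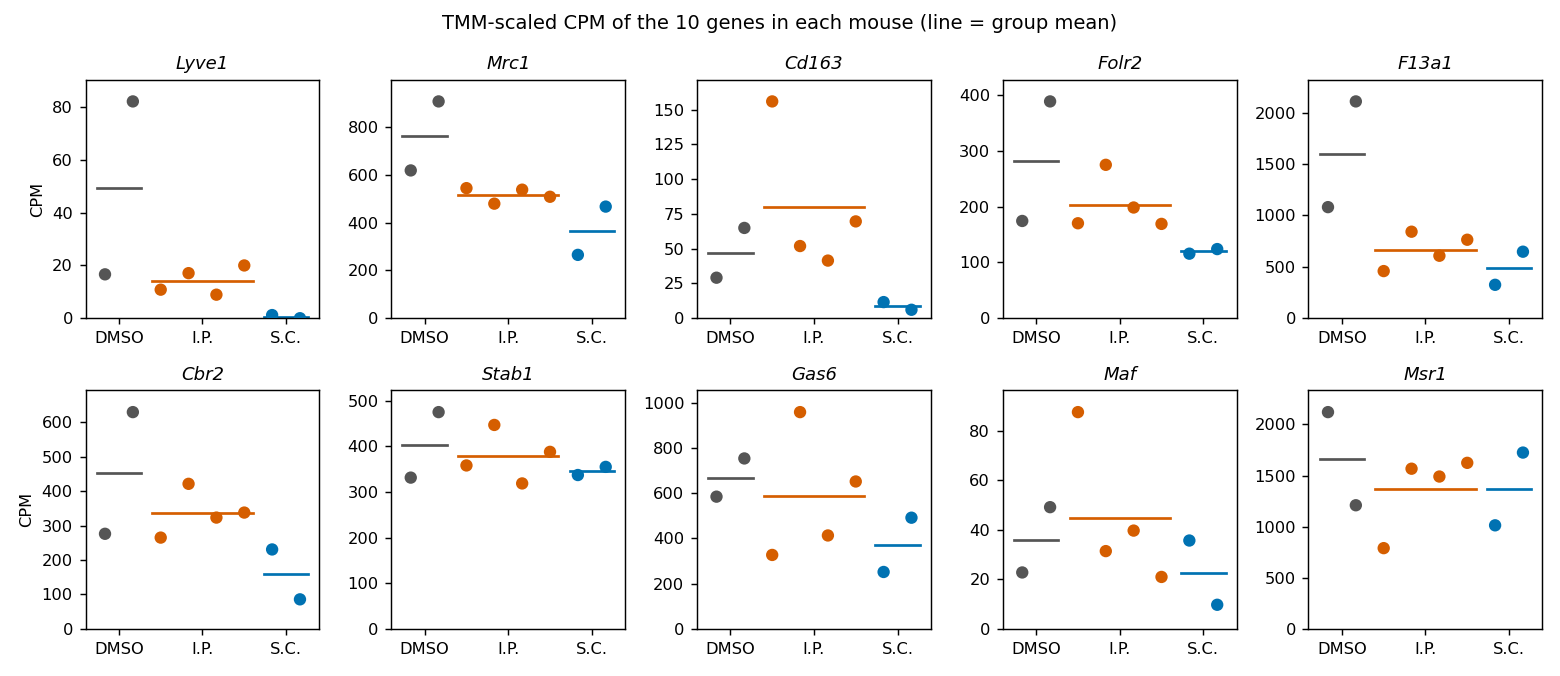
TMM-scaled CPM (vertical axes, each from 0) of the 10 genes in the 2 DMSO, 4 I.P. and 2 S.C. mice, with 1 point per mouse and a line at each group's mean. Both S.C. mice lie below both DMSO mice for 7 of the 10 genes, and DMSO mouse 2 lies above DMSO mouse 1 for 9 of the 10.

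Lyve1, a hyaluronan receptor related to CD44, was the member that differed most between the groups. It was at 16.6 and 82.1 CPM in the DMSO mice (244 and 1422 counts). In the I.P. mice it was at 10.8, 17.1, 8.91 and 19.98 CPM (171, 279, 159 and 333 counts). In the S.C. mice it was at 1.19 and 0 CPM (18 and 0 counts). The S.C. mice were thus below every other mouse, while the I.P. mice lay on both sides of DMSO mouse 1 and all below DMSO mouse 2. DMSO mouse 1, the lower of the controls, was still 14.01-fold above S.C. mouse 1. The fitted log2 fold change was -6.33 (standard error, SE, 1.55) for S.C. against DMSO and -1.81 (SE 0.55) for I.P. against DMSO. Leaving out DMSO mouse 2 gave -0.24 by I.P. and -4.79 by S.C. Leaving out S.C. mouse 1, so that the mouse at 0 counts stood alone, gave -12.57. That size depends on the default prior count of edgeR's fit, not on the 2 used for log2 CPM.

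The 0 counts of S.C. mouse 2 stood in a library with more such gaps than most. Of the 9325 genes that averaged 5 CPM or more, 0.525% in S.C. mouse 1 and 0.365% in S.C. mouse 2 had 0 counts, against 0.0107% to 0.129% in the other 6 mice. Of 7463 genes with at least 10 CPM in both DMSO mice, 9 (0.121%) were under 2 CPM in both S.C. mice, Lyve1 among them, and 0 were under 2 CPM in all 4 I.P. mice. The genes whose log2 CPM over the 8 mice, centred on their mean, differed least from that of Lyve1 were A430033K04Rik (root mean square difference 0.86), Rac3 (1.03) and Cep76 (1.05). A430033K04Rik was at 10.4 and 14.03 CPM in the DMSO mice, 7.02 to 17.4 CPM in the I.P. mice, and 1.65 and 0 CPM in the S.C. mice. The part that missing counts play in the level of Lyve1 was not tested.

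Cd163, the scavenger receptor for hemoglobin-haptoglobin complexes, was low in the S.C. mice and spread widely in the I.P. mice. It was at 29.1 and 65.0 CPM in the DMSO mice and at 11.6 and 6.07 CPM in the S.C. mice (176 and 84 counts). In the I.P. mice it was at 156, 51.9, 41.5 and 69.7 CPM. Both S.C. mice were thus below all other mice, and 2 of 4 I.P. mice were above both DMSO mice. The log2 fold change was -2.41 (SE 0.60) for S.C. against DMSO and 0.75 (SE 0.56) for I.P. against DMSO. For S.C. against I.P. it was -3.14 (SE 0.66), and the mean of the I.P. mice was 9.03-fold that of the S.C. mice. I.P. mouse 1 carried much of the I.P. value, which was 0.19 without it. Leaving out DMSO mouse 2 gave -1.73 by S.C., which no longer met the study's criterion. The 3 genes nearest to Cd163 in pattern were Tbc1d2 (root mean square difference 0.48), Cul9 (0.55) and Smcr8 (0.59).

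Mrc1, which encodes the mannose receptor CD206, was at 619 and 907 CPM in the DMSO mice. It was at 544, 479, 538 and 508 CPM in the I.P. mice, and at 265 and 467 CPM in the S.C. mice. The groups did not overlap: every DMSO mouse was above every I.P. mouse, and every I.P. mouse above both S.C. mice. The I.P. mice lay close together, at 518 ± 29.9 CPM (SD, n = 4). Fitted log2 fold changes were -0.57 (SE 0.23) for I.P. and -1.06 (SE 0.41) for S.C. against DMSO. Leaving out DMSO mouse 2 brought these to -0.26 and -0.76, and leaving out S.C. mouse 1 brought the S.C. value to -0.72. Neither S.C. value met the study's criterion. Snrnp200, Ap2a2 and Nab2 lay nearest to Mrc1 in pattern, each with a root mean square difference of 0.20.

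Folr2, a folate receptor found on resident macrophages, was at 174 and 389 CPM in the DMSO mice. It was at 170, 275, 199 and 169 CPM in the I.P. mice and at 116 and 124 CPM in the S.C. mice. The S.C. mice were below all other mice, and the I.P. mice overlapped the DMSO mice. The log2 fold change was -1.23 (SE 0.45) for S.C. and -0.47 (SE 0.35) for I.P. against DMSO, and these were -0.55 and 0.22 without DMSO mouse 2. The S.C. value then missed the study's criterion.

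Stab1 and Msr1, a pair of receptors for modified lipoproteins and other ligands, differed least between S.C. and DMSO mice. Stab1, or stabilin-1, was at 331 and 475 CPM in the DMSO mice, 358, 447, 319 and 388 CPM in the I.P. mice, and 337 and 355 CPM in the S.C. mice. Msr1 was at 2121 and 1210 CPM in the DMSO mice, 790, 1567, 1491 and 1625 CPM in the I.P. mice, and 1013 and 1725 CPM in the S.C. mice. The groups overlapped for both genes in all comparisons. Their log2 fold changes against DMSO were -0.22 (SE 0.32) and -0.28 (SE 0.43) for S.C., and -0.10 (SE 0.24) and -0.29 (SE 0.35) for I.P. Msr1 was the only member higher in DMSO mouse 1 than in DMSO mouse 2.

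F13a1, a transglutaminase of macrophages and monocytes, was at 1080 and 2109 CPM in the DMSO mice. It was at 458, 841, 607 and 763 CPM in the I.P. mice and at 325 and 647 CPM in the S.C. mice. All 6 mice given thiostrepton were below both DMSO mice, while the I.P. and S.C. mice overlapped. The log2 fold change was -1.26 (SE 0.33) for I.P. and -1.71 (SE 0.51) for S.C. against DMSO. Without DMSO mouse 2 these were -0.70 and -1.16.

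Cbr2 was at 276 and 630 CPM in the DMSO mice, 265, 422, 323 and 338 CPM in the I.P. mice and 231 and 85.9 CPM in the S.C. mice. Both S.C. mice were below all other mice, by little for S.C. mouse 1, and they differed 2.69-fold from each other. The log2 fold change was -1.51 (SE 0.62) for S.C. and -0.43 (SE 0.34) for I.P. against DMSO. The I.P. value was 0.28 without DMSO mouse 2. The S.C. value missed the study's criterion but met it under 9 of 13 alternatives, and ranged from -2.41 without S.C. mouse 1 to -0.81 without DMSO mouse 2. Against the I.P. mice it was -1.06 (SE 0.41), and it missed the criterion without S.C. mouse 2 (-0.51), I.P. mouse 2 (-0.93) or I.P. mouse 4 (-1.07).

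Gas6, a ligand of the receptors AXL, MERTK and TYRO3 that bridges dead cells to macrophages, was at 585 and 754 CPM in the DMSO mice. It was at 327, 958, 413 and 652 CPM in the I.P. mice and at 252 and 492 CPM in the S.C. mice. The S.C. mice were below both DMSO mice, and the I.P. mice spread to both sides of them. Fitted log2 fold changes were -0.85 (SE 0.41) for S.C. and -0.19 (SE 0.41) for I.P. against DMSO.

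Maf, the transcription factor c-MAF of resident and IL-10-producing macrophages, was at 22.8 and 49.2 CPM in the DMSO mice. It was at 87.6, 31.4, 39.7 and 20.9998 CPM in the I.P. mice and at 35.7 and 9.75 CPM in the S.C. mice. The S.C. mice differed 3.66-fold, I.P. mouse 1 was 2.85-fold above the mean of the other 3, and the groups overlapped in all comparisons. Fitted log2 fold changes were 0.31 (SE 0.56) for I.P. and -0.66 (SE 0.73) for S.C. against DMSO. Leaving out I.P. mouse 1 turned the former to -0.23.

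**Figure D2:**
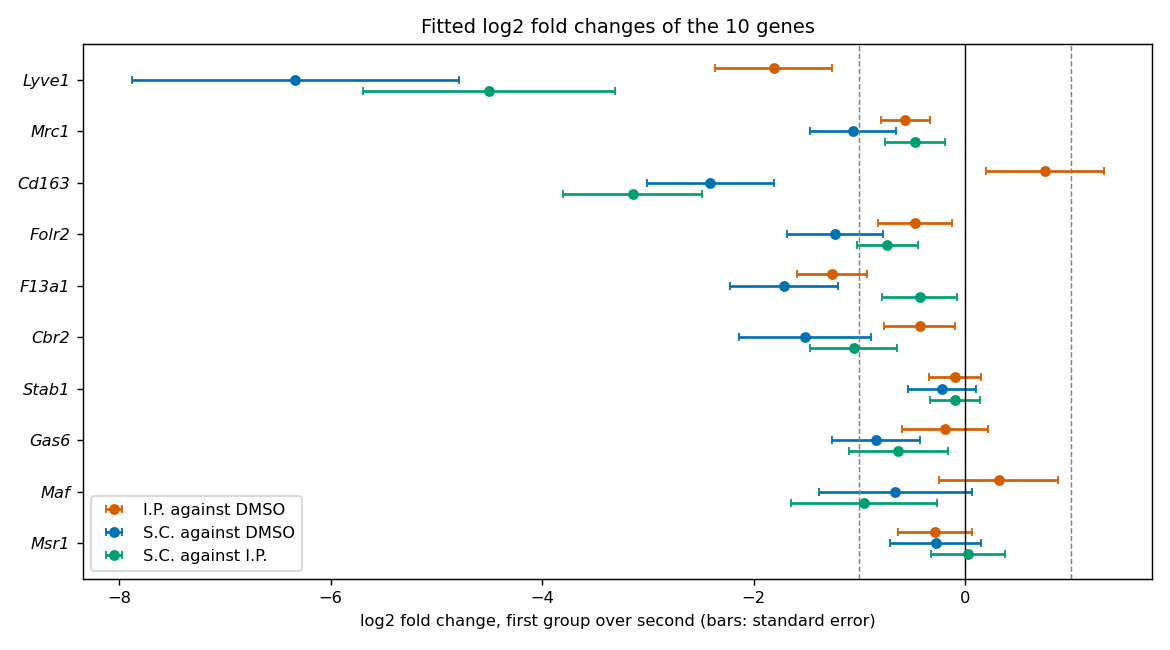
Fitted log2 fold changes of the 10 genes (horizontal axis, first group over second; dashed lines at 2-fold) with standard errors as bars, for I.P. against DMSO, S.C. against DMSO and S.C. against I.P. All 10 values for S.C. against DMSO are below 0, from -6.33 for Lyve1 to -0.22 for Stab1, while Cd163 (0.75) and Maf (0.31) are above 0 for I.P. against DMSO.

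The members that differed most were lower in the S.C. mice, while Stab1, Msr1 and Maf overlapped the controls. The study's criterion for a differentially expressed gene, a 2-fold change or more at an unadjusted P under 0.05, was applied to edgeR's quasi-likelihood test over all genes. In S.C. against DMSO mice, 5 of 10 members met it, all lower, namely Lyve1, Cd163, F13a1, Folr2 and Mrc1, beside 2.77% of the 11680 genes tested that met it as lower. None of the 10 was higher (0, beside 2.29% of all genes), and 5.06% of all genes met it in either direction. All 10 members had a log2 fold change below 0, as did 48.4% of all genes, and 6 were at least 2-fold lower, as were 8.50% of all genes. Both S.C. mice lay below both DMSO mice for 7 members, and for 18.5% of all genes, and above both for 0 members and 16.0% of all genes. The median log2 fold change of the members was -1.14, and that of all genes 0.02. Since the members were picked with these values known, nothing is read from these shares.

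In I.P. against DMSO mice, 2 of 10 members met the criterion, Lyve1 and F13a1, both lower, beside 0.468% of the 12174 genes tested that met it as lower. Of the members 0 met it as higher, beside 1.53% of all genes. These 2 members were also the ones at least 2-fold lower, as were 2.03% of all genes. Of the members, 8 had a log2 fold change below 0, as did 48.2% of all genes. All 4 I.P. mice lay below both DMSO mice for 2 members, Mrc1 and F13a1, and for 6.88% of all genes. They lay above both for 0 members, and for 7.29% of all genes. The median was -0.36 for the members and 0.02 for all genes. The comparisons of both routes share the same 2 DMSO mice, so their values are not independent.

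In S.C. against I.P. mice, 3 of 10 members met the criterion, Lyve1, Cd163 and Cbr2, all lower in the S.C. mice, beside 4.64% of the 12206 genes tested. Of the members 0 met it as higher, beside 2.41% of all genes, and 7.05% of all genes met it in either direction. A log2 fold change below 0 was found for 9 members and 48.2% of all genes, and a value of -1 or lower for 3 members and 10.7% of all genes. Both S.C. mice lay below all 4 I.P. mice for 5 members, which were Lyve1, Mrc1, Cd163, Folr2 and Cbr2, and for 11.1% of all genes, and above all 4 for 0 members and 7.46% of all genes. The median was -0.68 for the members and 0.02 for all genes. The S.C. mice had the lowest level of all 8 mice for 8 of the 10 members, S.C. mouse 1 for 4 and S.C. mouse 2 for 4. How often this held over all genes was not computed, and nothing is read from this count. After Benjamini-Hochberg adjustment over all genes, edgeR's quasi-likelihood test gave 0 genes with an adjusted p under 0.05 in each of the 3 comparisons. At an unadjusted P under 0.05 there were 632 genes (5.41%) by S.C., 418 (3.43%) by I.P. and 1049 (8.59%) for S.C. against I.P. By DESeq2 107, 19 and 234 genes had an adjusted p under 0.05 in the same order, among them 2 members by S.C. (Cd163 and F13a1), 0 by I.P. and 2 for S.C. against I.P. (Cd163 and Lyve1). By edgeR's likelihood ratio test it was 179, 10 and 265 genes. Cd163 and Lyve1 were among them by S.C. and for S.C. against I.P., and 0 members by I.P. By either method the adjusted p do not test the members, which were picked with earlier results of these counts known.

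**Figure D3:**
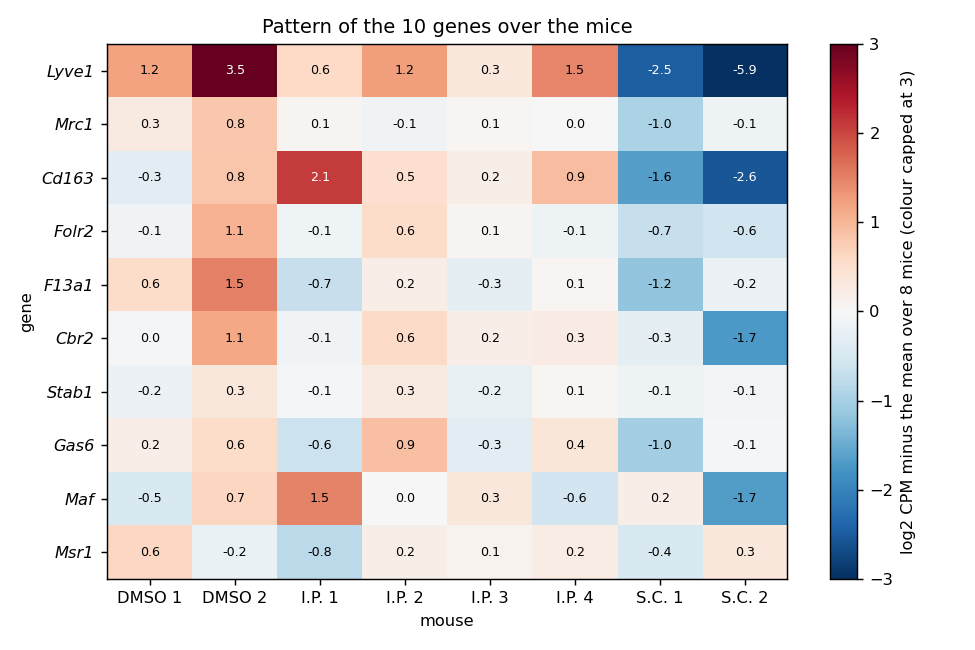
Log2 CPM of each of the 10 genes (vertical) in each of the 8 mice (horizontal), minus that gene's mean over the 8 mice, with the value printed in each square and the colour scale capped at 3. DMSO mouse 2 is highest for 6 of the 10 genes, and a S.C. mouse is lowest for 8. Shares over all genes were not computed for these counts.

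The controls differed from each other for these genes more than for most. DMSO mouse 2 was above DMSO mouse 1 for 9 of 10 members, as it was for 47.2% of the 9325 genes that averaged 5 CPM or more. For 5 members, Lyve1 (4.94-fold), Cbr2 (2.28-fold), Folr2 and Cd163 (2.23-fold each) and Maf (2.16-fold), it was at least 2-fold above, as it was for 3.27% of those genes. The median log2 difference of DMSO mouse 2 over mouse 1 was 1.03 for the members and -0.03 for those genes. Without DMSO mouse 2, 1 member (Lyve1) instead of 5 met the criterion in S.C. against DMSO mice, and 0 instead of 2 in I.P. against DMSO mice. Over all genes the share called lower also fell by S.C., from 2.77% to 0.228%, and was 0.446% by I.P. The members' median was then -0.71 by S.C. and 0.09 by I.P. Without DMSO mouse 1 the counts were 6 and 2, beside 0.517% and 0.313% of all genes, and the medians -1.51 and -0.59. The direction of the members' median for I.P. mice therefore depended on which control was kept, and that for S.C. mice did not. Single members by S.C. did change sign, Stab1 to 0.0546 without DMSO mouse 2 and Msr1 to 0.17 without DMSO mouse 1.

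Other genes of resident macrophages were taken from a list of 30 that holds no member, of which 27 were tested against DMSO. The list was written with earlier results of these counts known. In S.C. mice 4 of them met the criterion, all lower, beside 2.77% of all genes, and 0 met it as higher, beside 2.29%. They were Ednrb, an endothelin receptor, Dab2, an adaptor of endocytosis, Clec10a, a galactose-binding lectin, and Fcna, a ficolin. Ednrb (chromosome 14, 103814625 to 103844402) was at 148 and 286 CPM in the DMSO mice and 71.5 and 108 CPM in the S.C. mice, a log2 difference of -1.27 (SE 0.44, adjusted p = 0.842 by edgeR). Dab2 (chromosome 15, 6299788 to 6440712) was at 2129 and 2127 CPM in the DMSO mice and 634 and 1268 CPM in the S.C. mice, with -1.16 (SE 0.41, adjusted p = 0.842 by edgeR). Clec10a (-1.40) and Fcna (-1.05) were named after their values were seen. The median log2 fold change of the 27 genes was -0.61, and both S.C. mice lay below both DMSO mice for 13 of them, as for 18.5% of all genes. They lay above both for 2, Tmem26 (1.52) and Cd5l (1.08), as for 16.0% of all genes. Fcgrt, the neonatal Fc receptor, was the third of the list by P against DMSO with -0.85 (SE 0.33, adjusted p = 0.902 by edgeR). In S.C. against I.P. mice, 1 gene met the criterion as lower (Fcna, -1.29) and 1 as higher (Tmem26, 2.32). Over all genes these shares were 4.64% and 2.41%. Tmem26 and Cd5l were named after their values were seen.

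In I.P. mice 4 of the 27 genes met the criterion, 3 lower and 1 higher, beside 0.468% and 1.53% of all genes. Without DMSO mouse 2 it was 0 lower and 2 higher. Dab2 was at 364 to 1452 CPM, below both DMSO mice in all 4 mice, with a log2 fold change of -1.11 (SE 0.44). Ednrb was at 53.2 to 152 CPM, with -1.38 (SE 0.45), and I.P. mouse 2 alone reached the range of the DMSO mice. Ccl24, a chemokine named after its values were seen, had -1.92 (SE 0.81) and was at 3.88 and 31.8 CPM in the DMSO mice. Vsig4, the complement receptor of liver and peritoneal macrophages, was higher. It was at 7.34 to 10.7 CPM in the I.P. mice, 0.749 and 4.04 CPM in the DMSO mice and 0 and 4.33 CPM in the S.C. mice, with a log2 fold change of 1.81 (SE 0.63) for I.P. against DMSO. Ccl7, a monocyte chemokine, had the smallest P of the list by I.P. (log2 fold change -0.93), short of 2-fold. The edgeR adjusted p of these 5 genes was 0.98 each, and the median of the 27 genes was -0.32.

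Endocytic receptors outside the 10 members had medians little above that of all genes by both routes. Of 26 listed scavenger and lectin receptors, 18 were tested. Their median log2 fold change was 0.18 by S.C. and 0.10 by I.P., and that of all genes 0.02 by each. Single values ranged from -1.79 to 3.99 by S.C. and from -1.19 to 0.82 by I.P. The highest, of Olr1, rested on S.C. mouse 2 (20.9 CPM, against 0.0659 CPM in S.C. mouse 1). In S.C. mice 2 of them met the criterion, 1 lower and 1 higher, beside 2.77% and 2.29% of all genes. Marco, a class A scavenger receptor like Msr1, was lower, at 7.97 and 4.62 CPM against 14.98 and 28.8 CPM in the DMSO mice and 14.2 to 35.7 CPM in the I.P. mice (log2 fold change -1.79 for S.C. against DMSO, SE 0.61, adjusted p = 0.814 by edgeR). Clec7a, which encodes the beta-glucan receptor dectin-1, was higher, at 614 and 882 CPM against 334 and 116 CPM in the DMSO mice and 237 to 440 CPM in the I.P. mice (1.74, SE 0.56, adjusted p = 0.793 by edgeR). In I.P. mice 0 of the 18 met the criterion by edgeR's quasi-likelihood test, beside 0.468% of all genes as lower and 1.53% as higher, and 1 had an unadjusted P under 0.05. That gene was Lgals3, which encodes galectin-3, at 7454 to 14448 CPM in the I.P. mice and 6519 and 5449 CPM in the DMSO mice, with 0.77 (SE 0.31). It was followed by Lrp1, with 0.82 (SE 0.41), and Scarb2, with 0.34 (SE 0.22). The edgeR adjusted p of these 3 genes was 0.98 each. By S.C. the log2 fold change of Lgals3 was 0.74 (SE 0.31, adjusted p = 0.938 by edgeR).

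**Figure D4:**
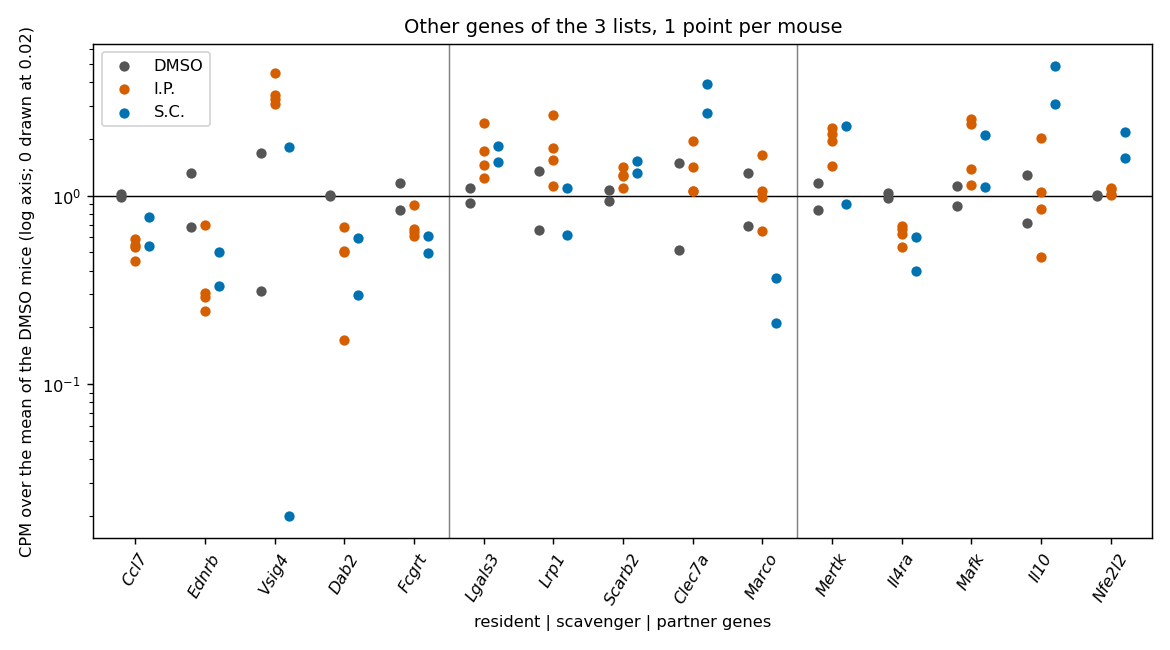
CPM of 15 genes of the resident, scavenger and partner lists in each mouse, divided by the mean of the DMSO mice (log axis, 1 point per mouse; a level of 0 is drawn at 0.02). Ednrb, Dab2 and Marco lie below both DMSO mice in both S.C. mice, and Clec7a, Il10 and Nfe2l2 above.

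The receptors, relatives and regulators of the members were taken from a list of 39, of which 32 were tested. Their median log2 fold change was 0.29 by S.C. and 0.08 by I.P. By S.C. 1 gene met the criterion, as higher, a share near the 2.29% of all genes. It was Il10, the cytokine known to raise Cd163 and to need MAF, at 19.4 and 30.8 CPM against 8.17 and 4.56 CPM in the DMSO mice and 2.99997 to 12.9 CPM in the I.P. mice (log2 fold change 1.98, SE 0.57, adjusted p = 0.747 by edgeR). Cd163 was lowest in the S.C. mice, in which Il10 was higher. In I.P. mouse 1, Il10 (12.9 CPM) and Cd163 (156 CPM) were both the highest of the I.P. mice. The other I.P. mice did not keep this order. I.P. mouse 4 had the lowest Il10 (2.99997 CPM) with the second highest Cd163 (69.7 CPM). I.P. mouse 3 had the second highest Il10 (6.61 CPM) with the lowest Cd163 (41.5 CPM). A link between the 2 genes was not tested. Nfe2l2, or NRF2, a stress-response factor that pairs with small MAF proteins, was at 310 and 427 CPM in the S.C. mice and 195 to 216 CPM in the other 6 mice (0.90, SE 0.31, adjusted p = 0.83 by edgeR). By I.P. 0 of the 32 met the criterion by edgeR's quasi-likelihood test, by its likelihood ratio test or by DESeq2, beside 0.468% of all genes as lower and 1.53% as higher by the first, and 3 had an unadjusted P under 0.05 by the first. Mertk, a receptor of Gas6, was at 52.3 to 82.9 CPM in the I.P. mice, above the 30.4 and 42.3 CPM of the DMSO mice in all 4, with 0.96 (SE 0.28, adjusted p = 0.98 by edgeR). In the S.C. mice Mertk was at 32.9 and 84.9 CPM. Mafk, which encodes a small MAF protein, was at 40.3 and 31.6 CPM in the DMSO mice, 40.8 to 91.1 CPM in the I.P. mice and 40.1 and 75 CPM in the S.C. mice, and its value by I.P. was 0.89 (SE 0.37, adjusted p = 0.98 by edgeR).

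Il4ra, the receptor chain through which IL-4 raises Mrc1, was below both DMSO mice in all 6 mice given thiostrepton. It was at 401 and 377 CPM in the DMSO mice, 208 to 269 CPM in the I.P. mice and 154 and 235 CPM in the S.C. mice. Fitted log2 differences were -0.67 (SE 0.21, adjusted p = 0.98 by edgeR) by I.P. and -0.997 (SE 0.34, adjusted p = 0.812 by edgeR) by S.C. against DMSO. Both changes missed the criterion's 2-fold bound.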

How the data were processed

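RNA-seq counts of TAMs from 8 mice were used, grouped by the treatment in their labels. The authors deposited whole-number counts per gene symbol, without normalization. By the study's methods, bowtie2 2.2.3 and RSEM 1.2.15 were used with mm10, while the submitters' processing notes name TopHat2 and edgeR, so which aligner made these counts is uncertain. RSEM divides reads among similar genes, which can shift counts between them. Spi1, Ly6g and Trac were not used here. One listed gene is not reported here and was left out of the lists.

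R 4.3.3 with edgeR 4.0.16 was used. Genes passing filterByExpr (minimum count 10, minimum total 15), among them all 10 members, were TMM-scaled. For every comparison only its own groups entered the fit, tested two-sided by quasi-likelihood, with Benjamini-Hochberg adjustment over all genes. An SE is the log2 fold change divided by the square root of F, in size. Log2 CPM had a prior count of 2. Depth is 14127506 to 17577466 counts, and p-values measure the spread between mice.

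Members and lists were chosen with earlier results of these data known. The named genes were the members, the 3 of each other list with the smallest P by each route, and the 3 nearest in pattern to Lyve1, Mrc1 and Cd163. Alternatives were no filter, 1 CPM in 2 samples, RLE or library-size scaling, the likelihood ratio test, DESeq2 1.42.0, a joint fit of the 3 groups, a replicate block, and leaving out each mouse. A crossed block was added after the data were seen. The procedure was tested on simulated data.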

Additional observations from a re-analysis of the deposited data

Results flagged for a closer look

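In 3 of the 32 genes checked over the 4 I.P. mice, 1 mouse lay far from the other 3 relative to the whole range, a gap that chance gives in about 1 of 20 groups (share of the range 0.839 for Msr1, 0.873 for Ednrb and 0.902 for Ccl24). For Msr1 it was I.P. mouse 1, at 790 CPM against 1491 to 1625 CPM in the others. For Ccl24 it was also I.P. mouse 1, at 10.6 CPM against 2.51 to 3.31 CPM. For Ednrb it was I.P. mouse 2, at 152 CPM against 53.2 to 65.7 CPM.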

How the results depend on the processing

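With 2 DMSO and 2 S.C. mice, single mice decided many values. Leaving out each mouse in turn, the number of members that met the criterion ranged from 0 to 2 by I.P. (0 without DMSO mouse 2), 1 to 6 by S.C. (1 without DMSO mouse 2) and 2 to 4 in S.C. against I.P. mice. The members' median log2 fold change ranged from -0.59 to 0.0929, from -1.51 to -0.71 and from -0.86 to -0.47 in the same order. The resident list had 2 to 5, 1 to 11 and 2 to 5 such genes, the scavenger list 0 to 2, 0 to 7 and 2 to 5, and the partner list 0 to 2, 0 to 12 and 3 to 11. Over all genes, 2989 met the criterion by S.C. without S.C. mouse 1 and 3432 without S.C. mouse 2, against 591 with all mice, 113 without DMSO mouse 2 and 206 without DMSO mouse 1. An arm left with 1 mouse was assumed to vary like the other group. Counts from such fits are therefore not read as results about the members or the lists.

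By I.P., the log2 fold change changed sign when a mouse was left out for Folr2 (-0.94 to 0.22), Cbr2 (-0.90 to 0.28), Stab1 (-0.33 to 0.19), Gas6 (-0.53 to 0.0033), Maf (-0.23 to 0.98) and Msr1 (-0.64 to 0.17). By S.C. it did for Stab1 (-0.46 to 0.0546) and Msr1 (-0.74 to 0.17), and in S.C. against I.P. mice for Msr1 (-0.40 to 0.35). Library-size scaling gave -0.0916 for Msr1 in S.C. against I.P. mice, and moved the median of all genes by S.C. from 0.02 to -0.13 (196 genes higher and 429 lower, against 268 and 323). By S.C., Maf (-1.90) met the criterion without S.C. mouse 1.

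In the resident list 2 genes met the criterion by I.P. with all 3 groups in 1 fit, both lower. Beside them, 0.347% of all genes met it as lower and 0.945% as higher. In the scavenger list 1 did with no filter, as lower, beside 0.70% of all genes as lower and 1.54% as higher. In the partner list by S.C. there were 3 with no filter, 3 with library size only and 3 with all 3 groups in 1 fit. Of all genes, 2.46%, 1.68% and 2.63% met it as higher in these settings, and 2.69%, 3.67% and 4.42% as lower. By the likelihood ratio test 4 met it, beside 2.80% of all genes as higher and 3.36% as lower. By DESeq2 5 met it, beside 2.94% and 2.61%. The cause was not tested.

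The labels give same-numbered mice only a shared number. Correlations of their deviations lay between -0.144 and 0.075, which cannot show that these mice share nothing else. For S.C. against DMSO, with 2 mice per group, the values of both numbers are equal by construction. With the replicate block, 291, 429 and 389 genes met the criterion by I.P., by S.C. and in S.C. against I.P. mice, against 243, 591 and 860 without it. With the replicate block, the value of Stab1 by I.P. was 0.0101. The criterion was then met by 2 genes of the partner list by S.C., beside 1.62% of all genes as higher and 2.05% as lower. It was met by 2 of the scavenger list in S.C. against I.P. mice, beside 1.71% as higher and 1.61% as lower. With the numbers crossed, an alternative added after the data were seen, 475 genes met it by S.C., 3 of them in the partner list. Of all genes tested, 1.89% were then called higher and 2.17% lower.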
